A study of Mus musculus with 9 samples.

Results

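Tendon lineage regulators, 5 genes in all, were followed in cultured mouse sclerotome: the transcription factors Scx, Mkx, Egr1 and Egr2 and the tenocyte membrane protein Tnmd. Every probe set annotated to 1 of these gene symbols alone was taken, which gave 7 of the 45037 probe sets compared and 5 of the 18193 genes measured. This rule uses symbols and no array value, but the 5 genes were chosen with earlier results of these data known. Scx and Egr2 had 2 probe sets each, and Mkx, Egr1 and Tnmd had 1 each.

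The cells came from the sclerotome of mouse embryos at E11.5, cut from the region ventral to the neural tube after the notochord had been taken out, and were grown as micromass cultures, in which mesenchymal cells are plated as a dense drop. Cultures received TGF-β1 at 5 ng/ml, received BMP4 at 50 ng/ml or were left untreated, and RNA was hybridised to 9 Affymetrix mouse genome arrays, 3 biological replicates for each of the 3 conditions, treated for 8 hours. All cultures were kept in medium with fetal bovine serum, and 50 ng of total RNA per array was amplified before labelling. The labels place the factors after a night in culture while the culture methods add them soon after the cells attached, so the age of the cultures at treatment is uncertain.

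In the embryo, tendon progenitors of the trunk arise in the syndetome, a strip of sclerotome next to the myotome, where FGF signals from the muscle precursors switch on Scx. Scx, a basic helix-loop-helix factor, marks these progenitors first, TGF-β signalling maintains them, and Mkx, a homeodomain factor related to the Iroquois family, acts later in the growth of collagen fibrils. Egr1 and Egr2 are zinc-finger factors of the immediate early class, induced within minutes by serum, stretch and growth factors, and both can raise collagen gene expression in tendon cells. Tnmd, a type II membrane glycoprotein, is a late marker of the tenocyte and depends on Scx. BMP signalling drives sclerotome towards cartilage, and cells that express both Scx and Sox9 contribute to the site where tendon joins bone.

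The values are log2 signals on which each probe set had been centred on its median over the 9 arrays, so that a value of 0 is the middle array and not absence of RNA. Differences between conditions are kept in such values, but levels are not: genes cannot be ranked by abundance, it is not known which probe sets lay above background, and the identity of the tissue could not be checked from the level of its markers. In bulk RNA, fewer cells of a type and less RNA per cell cannot be told apart. A probe set is called when its adjusted p in limma's moderated test is under 0.05. Errors of differences are standard errors (SE) from that model over all 9 arrays.

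Promoter windows are shown for Egr2 and Tnmd only, a choice that used no array value, and no window of Scx was available. These genes moved together from array to array (r = 0.95 over the 9 arrays between Tnmd and Egr2 1427682_a_at). Whether motifs in the windows had a part in that likeness was not tested. RefSeq, build GRCm38.p6, gives 5 windows for Egr2, of which 2 are shown. The first window shown is chr10:67537316-67537615 on the plus strand, the second is chr10:67537619-67537918 on the plus strand, and that of Tnmd is chrX:133850758-133851057 on the plus strand. Each runs 5′ to 3′ across a start site of transcription, and capitals mark every motif that was searched and found.
Egr2, first window: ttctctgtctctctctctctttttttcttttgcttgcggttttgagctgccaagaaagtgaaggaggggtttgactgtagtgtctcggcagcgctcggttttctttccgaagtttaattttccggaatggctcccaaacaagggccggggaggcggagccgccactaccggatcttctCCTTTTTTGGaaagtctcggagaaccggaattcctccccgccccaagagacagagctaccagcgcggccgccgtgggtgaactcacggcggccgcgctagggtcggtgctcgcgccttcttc
Egr2, second window: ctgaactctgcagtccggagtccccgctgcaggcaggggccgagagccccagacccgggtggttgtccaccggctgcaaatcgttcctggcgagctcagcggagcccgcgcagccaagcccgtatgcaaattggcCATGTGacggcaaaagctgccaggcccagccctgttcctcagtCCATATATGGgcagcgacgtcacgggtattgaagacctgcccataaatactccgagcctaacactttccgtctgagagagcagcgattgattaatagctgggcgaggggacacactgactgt
Tnmd: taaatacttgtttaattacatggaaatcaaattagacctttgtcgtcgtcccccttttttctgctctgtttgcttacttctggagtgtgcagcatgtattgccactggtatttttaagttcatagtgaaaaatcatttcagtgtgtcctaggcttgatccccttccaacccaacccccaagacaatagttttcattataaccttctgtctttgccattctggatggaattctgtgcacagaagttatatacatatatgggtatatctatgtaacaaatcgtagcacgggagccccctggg
Both Egr2 windows shown held a CArG box, the binding motif of serum response factor, spelled CCTTTTTTGG in the first and CCATATATGG in the second and placed at position -72 from the start site in both. Of the other Egr2 windows, that at chr10:67535249-67535548 held no CArG box and the E-box CACGTG at position -27, and the other two overlap the second window and hold its CArG box. A CArG box was present in 1.63% of 32851 windows of this length. The second window also held the E-box CATGTG at position -115, an instance of CANNTG, which 72.3% of windows hold. The Smad motifs CAGACA (21% of windows), GTCTAGAC (0.213%) and GGCGCC (11.9%), the Egr motifs GCGGGGGCG (2.91%) and GCGTGGGCG (0.612%), the CRE TGACGTCA (1.79%) and the AP-1 motif TGACTCA (5.2%) were not found in these 3 windows, and the Tnmd window held none of the motifs searched. Both strands were read, and the motifs found did not overlap. A match in a window describes its letters only, and says nothing of whether a factor was bound.

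Scx was raised by TGF-β1 and lowered by BMP4. Probe set 1428983_at read 1.89, 2.06 and 1.88 in TGF-β1 cultures, -0.83, -1.51 and -1.18 in BMP4 cultures, and 0.00, 0.00 and -0.20 in untreated cultures. The 3 conditions did not overlap, every TGF-β1 array lying above and every BMP4 array below all untreated arrays. The group means were 1.94 ± 0.10, -1.17 ± 0.34 and -0.07 ± 0.11 in TGF-β1, BMP4 and untreated cultures (SD, n = 3 each). TGF-β1 minus untreated was 2.01 ± 0.15 on the log2 scale, a 4.03-fold rise (95% interval 3.19 to 5.09), with an adjusted p of 0.000184, and it stood at rank 22 by size among all rising probe sets. With BMP4 the difference was -1.11 ± 0.15, a 2.16-fold fall (adjusted p 0.0025), at rank 192 among the falling probe sets. Set directly against each other, TGF-β1 and BMP4 cultures differed by 3.12 ± 0.15, or 8.68-fold (95% interval 6.87 to 10.97, adjusted p 6.5e-06), which was rank 5 among the probe sets higher with TGF-β1.

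The second Scx probe set, 1456291_x_at, gave smaller differences. Its name ends in _x_at, the suffix Affymetrix gives to sets with probes that also match other transcripts. It read 0.48, 0.94 and 0.99 in TGF-β1 cultures, -0.22, -0.42 and 0.00 in BMP4 cultures, and 0.05, -0.24 and -0.03 in untreated cultures. TGF-β1 arrays were again above all others, but BMP4 and untreated arrays overlapped. TGF-β1 minus untreated was 0.88 ± 0.15, or 1.84-fold (adjusted p 0.012), and this call was lost without the third TGF-β1 array (0.78, adjusted p 0.055). The BMP4 difference was -0.14 ± 0.15 (adjusted p 0.74, 95% interval -0.48 to 0.20), an interval that does not reach the fall seen with the first probe set. Between TGF-β1 and BMP4 it was 1.02 ± 0.15, or 2.02-fold (adjusted p 0.0032). Both probe sets thus gave a rise with TGF-β1 and disagreed on BMP4.

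Scx overlaps Bop1, a ribosome biogenesis gene, in RefSeq. The Bop1 probe set 1423264_at rose by 0.51 ± 0.10 with TGF-β1 (adjusted p 0.022) and differed by 0.27 ± 0.10 with BMP4 (adjusted p 0.19), and the other, 1430491_at, differed by 0.43 ± 0.13 (adjusted p 0.099) and 0.04 ± 0.13 (adjusted p 0.94) in the same order. Neither was lower with BMP4, unlike Scx 1428983_at. Scx 1456291_x_at rose by 0.88 with TGF-β1 (adjusted p 0.012) and was not called with BMP4 (-0.14, adjusted p 0.74). In these comparisons with untreated cultures its calls were those of Bop1 1423264_at. In TGF-β1 minus BMP4 the calls differed. Scx 1456291_x_at was called there (1.02, adjusted p 0.0032), and Bop1 1423264_at (0.24, adjusted p 0.22) and 1430491_at (0.39, adjusted p 0.11) were not. The part of Bop1 in the signal of either Scx probe set was not tested.

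Mkx was raised by TGF-β1, with no difference detected with BMP4. Its probe set 1437492_at read 1.14, 1.49 and 0.99 in TGF-β1 cultures, 0.06, -0.36 and -0.19 in BMP4 cultures, and 0.00, -0.08 and -0.18 in untreated cultures. All TGF-β1 arrays were above all others, while BMP4 and untreated arrays were interleaved. The TGF-β1 difference from untreated cultures was 1.29 ± 0.14, a 2.45-fold rise (95% interval 1.97 to 3.04, adjusted p 0.0011), at rank 95 among rising probe sets. For BMP4 the difference was -0.08 ± 0.14 (adjusted p 0.86), and its 95% interval ran from -0.39 to 0.23. Set against BMP4, TGF-β1 cultures were higher by 1.37 ± 0.14, or 2.58-fold (adjusted p 0.00036). The order of Mkx was therefore TGF-β1 first, with BMP4 and untreated cultures not separated beyond their spread.

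**Figure D1:**
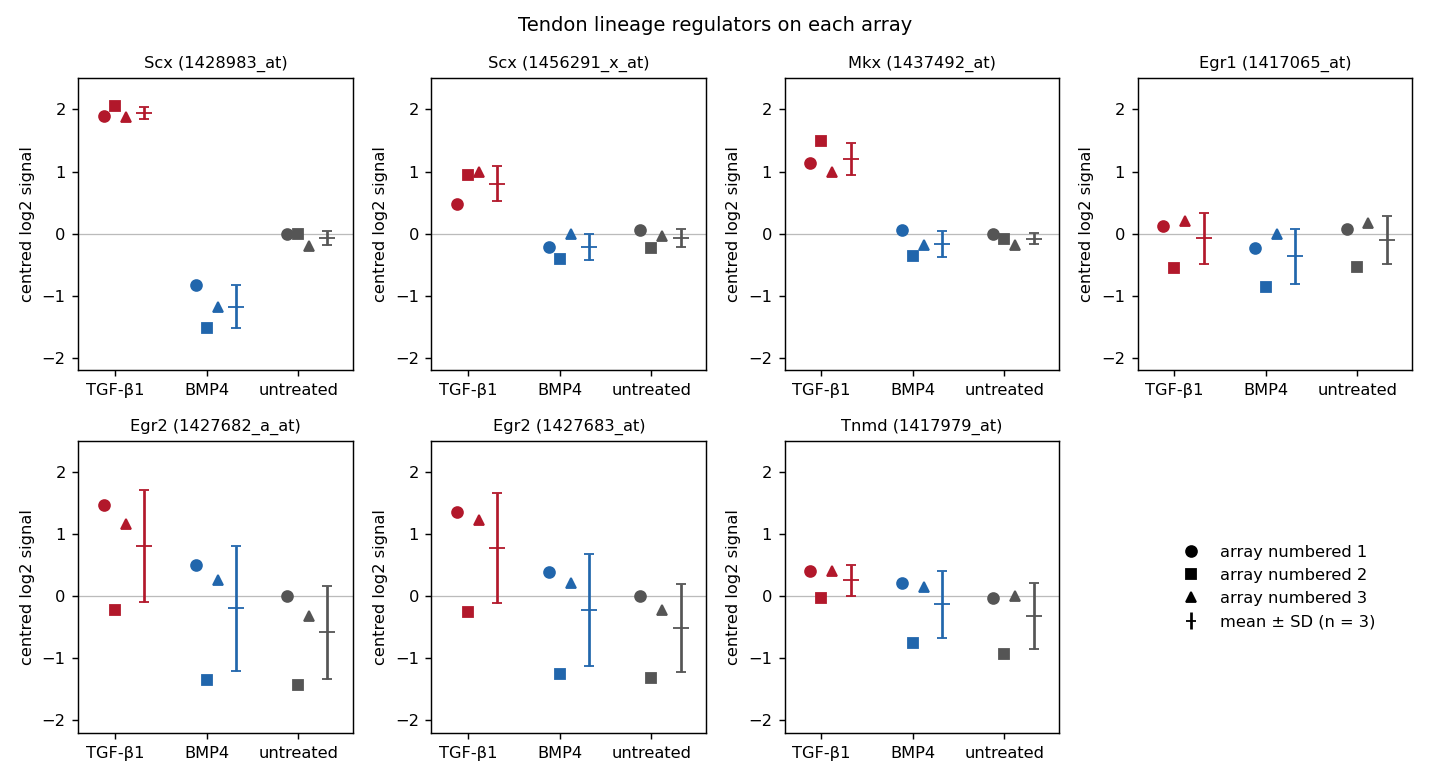
Centred log2 signal (vertical axes) of the 7 probe sets in TGF-β1, BMP4 and untreated cultures (horizontal axes), with a symbol for each array by its number and bars for the mean ± SD of 3 arrays. Scx 1428983_at separates the 3 conditions, Scx 1456291_x_at and Mkx separate TGF-β1 from the rest, and in Egr1, both Egr2 probe sets and Tnmd the square of array 2 is the lowest of each condition.

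Egr2 was higher with TGF-β1 in each numbered set of arrays, against a wide spread between the sets. Probe set 1427682_a_at read 1.48, -0.21 and 1.17 in TGF-β1 cultures, 0.50, -1.35 and 0.27 in BMP4 cultures, and 0.00, -1.42 and -0.31 in untreated cultures. Array 2 was the lowest of every condition, and the conditions overlapped through it. TGF-β1 minus untreated was 1.39 ± 0.57, or 2.62-fold, with an adjusted p of 0.22 when the numbers were ignored. Within arrays of the same number the difference was 1.48, 1.21 and 1.48, and the block on replicate number gave 1.39 ± 0.10 (adjusted p 0.00019). Against BMP4 the difference was 1.00 ± 0.57 (adjusted p 0.37), or 1.00 ± 0.10 with the block (adjusted p 0.00045). BMP4 minus untreated was 0.38 ± 0.57 (adjusted p 0.83). The suffix a_at is given to sets that match several transcripts of 1 gene.

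The other Egr2 probe set, 1427683_at, moved almost identically (r = 0.998 over the 9 arrays). It read 1.35, -0.25 and 1.22 in TGF-β1 cultures, 0.39, -1.25 and 0.22 in BMP4 cultures, and 0.00, -1.32 and -0.22 in untreated cultures. Its TGF-β1 difference from untreated cultures was 1.29 ± 0.53 (adjusted p 0.23), or 1.29 ± 0.09 with the block (adjusted p 0.00017), and the differences within a number were 1.35, 1.07 and 1.44. Against BMP4 it was 0.99 ± 0.53 (adjusted p 0.34), or 0.99 ± 0.09 with the block (adjusted p 0.00028). The difference with BMP4 was 0.29 ± 0.53 (adjusted p 0.86). With the 3 arrays numbered 2 left out, TGF-β1 minus untreated passed the test for both Egr2 probe sets, at 1.48 (adjusted p 0.0065) for 1427682_a_at and 1.40 (adjusted p 0.003) for 1427683_at. Gm32255 overlaps Egr2 in RefSeq, and signal from it cannot be told apart from that of Egr2 where probes match both.

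Egr1, the closest relative of Egr2 among the 5 genes, did not follow it. Probe set 1417065_at read 0.12, -0.55 and 0.20 in TGF-β1 cultures, -0.23, -0.86 and 0.00 in BMP4 cultures, and 0.07, -0.55 and 0.17 in untreated cultures. TGF-β1 and untreated arrays of the same number nearly coincided, and BMP4 was the lowest of each number. TGF-β1 minus untreated was 0.03 ± 0.27 (adjusted p 0.97, 95% interval -0.57 to 0.63), and within a number it was 0.05, 0.00 and 0.04. With the block its 95% interval was -0.13 to 0.19 (adjusted p 0.85), an interval that does not include a change of the size seen in Egr2. BMP4 minus untreated was -0.26 ± 0.27 (adjusted p 0.72), and within a number it was -0.30, -0.31 and -0.17. With the block its 95% interval was -0.42 to -0.10 (adjusted p 0.052, not called), in a comparison that was not treated as paired. TGF-β1 minus BMP4 was 0.29 ± 0.27 (adjusted p 0.61), and passed with the block at 0.29 ± 0.07 (adjusted p 0.029). Whether the responses of Egr1 and Egr2 differ was not tested, since a probe set was set only against itself.

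Tnmd, the mature tenocyte marker, gave the smallest differences with TGF-β1 apart from Egr1. Probe set 1417979_at read 0.41, -0.03 and 0.40 in TGF-β1 cultures, 0.21, -0.75 and 0.15 in BMP4 cultures, and -0.03, -0.93 and 0.00 in untreated cultures. As with Egr2, array 2 was the lowest of each condition and the groups overlapped. TGF-β1 minus untreated was 0.58 ± 0.30, or 1.50-fold (adjusted p 0.33), and 0.58 ± 0.11 with the block (adjusted p 0.016). Within a number it was 0.44, 0.91 and 0.40, so the largest difference came from the arrays numbered 2, and without those 3 arrays the difference was 0.42 (adjusted p 0.071). BMP4 minus untreated was 0.19 ± 0.30 (adjusted p 0.84), and TGF-β1 minus BMP4 was 0.39 ± 0.30 (adjusted p 0.52).

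**Figure D2:**
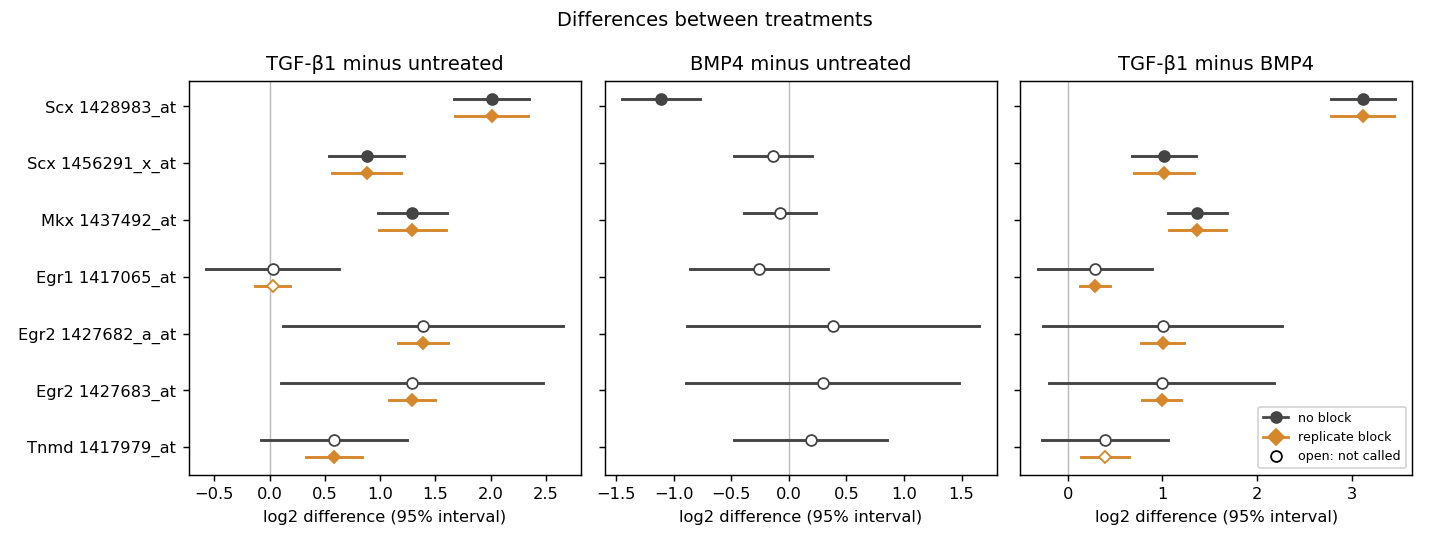
Log2 differences with 95% intervals (horizontal axes) for the 7 probe sets, in grey from the model without the replicate number and in orange with it as a block, which is drawn for the 2 comparisons treated as paired by number. The estimates are the same in both, and the intervals of both Egr2 probe sets, Egr1 and Tnmd narrow with the block while those of Scx and Mkx hardly change.

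Counted together, 3 of the 7 probe sets were called in TGF-β1 minus untreated, where 4.43% of all probe sets were called, and the same 3, both of Scx and that of Mkx, had groups that did not overlap, as had 21.8% of all probe sets. With the block, 6 of 7 were called, against 8.95% of all. In BMP4 minus untreated 1 of 7 was called (5.44% of all), and the groups of 1 did not overlap (20.0% of all). In TGF-β1 minus BMP4 3 of 7 were called (6.91% of all) and the groups of 3 did not overlap (25.5% of all). With the block 6 of 7 were called there, against 11.7% of all. The median difference over the 7 was 1.29 in TGF-β1 minus untreated, -0.08 in BMP4 minus untreated and 1.00 in TGF-β1 minus BMP4, beside 0.013, 0.0012 and 0.012 over all probe sets. The comparisons of TGF-β1 and of BMP4 with untreated cultures share their untreated arrays. The genes were chosen with earlier results of these data known, and the paper lists Scx and Mkx as raised by TGF-β on these arrays. These counts and medians are therefore a description and no test of an excess.

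The numbers of the arrays divided the 5 genes. Set against arrays 1 and 3 within each condition, the arrays numbered 2 were lower in Egr2 by -1.51 ± 0.11 (1427682_a_at, adjusted p 0.00014) and -1.43 ± 0.09 (1427683_at, adjusted p 5.2e-05), in Tnmd by -0.76 ± 0.09 (adjusted p 0.0019) and in Egr1 by -0.70 ± 0.07 (adjusted p 0.0007). Scx differed by -0.08 ± 0.13 (adjusted p 0.81) and -0.12 ± 0.13 (adjusted p 0.71), and Mkx by 0.05 ± 0.12 (adjusted p 0.89). Over the whole array 4.18% of probe sets were called in this comparison, and 2.78% of genes were lower and 3.65% higher. The arrays numbered 2 thus lay apart in 4 of the 7 probe sets, all of them lower. The size of the TGF-β1 effect on Egr2 and the size of the step between numbers were alike, 1.39 ± 0.10 and -1.51 ± 0.11 for 1427682_a_at.

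Several gene groups moved with the number in the same arrays, where 2.78% of all genes were lower and 3.65% higher. Among 20 relatives, co-repressors and fellow immediate early genes of the Egr factors, 11 were lower and 1 was higher on the arrays numbered 2, with a median of -0.43. A list of 10 Schwann, neural crest and neuronal markers was taken because Egr2 (Krox20) is a regulator of Schwann cells. Of these 6 were lower and 0 higher, with a median of -0.40. The 6 were the neuronal genes Tubb3, Elavl4 and Gap43, and Sox10, Cdh19 and Tfap2a. Erbb3, S100b, Fabp7 and Foxd3 were not called. The mean centred value of these 10 markers ran from -0.58 to -0.01 over the TGF-β1 arrays, from 0.14 to 0.35 over the BMP4 arrays and from -0.23 to 0.03 over the untreated arrays. None of the 10 was called in TGF-β1 minus untreated, with or without the block. Their differences ran from -0.84 to 0.08, and 1 had an unadjusted p under 0.05 in limma. Of 13 skeletal muscle markers 2 were lower and 1 was higher on the arrays numbered 2. Other groups were higher more often than lower there: 6 of 30 matrix genes of tendon and ligament were higher and 1 lower (median 0.06), and 3 of 9 sclerotome markers were higher and 0 lower (median 0.19). Which of these markers lay at background cannot be read from centred values, and the part of such cells in the values of Egr1, Egr2 and Tnmd was not tested.

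**Figure D3:**
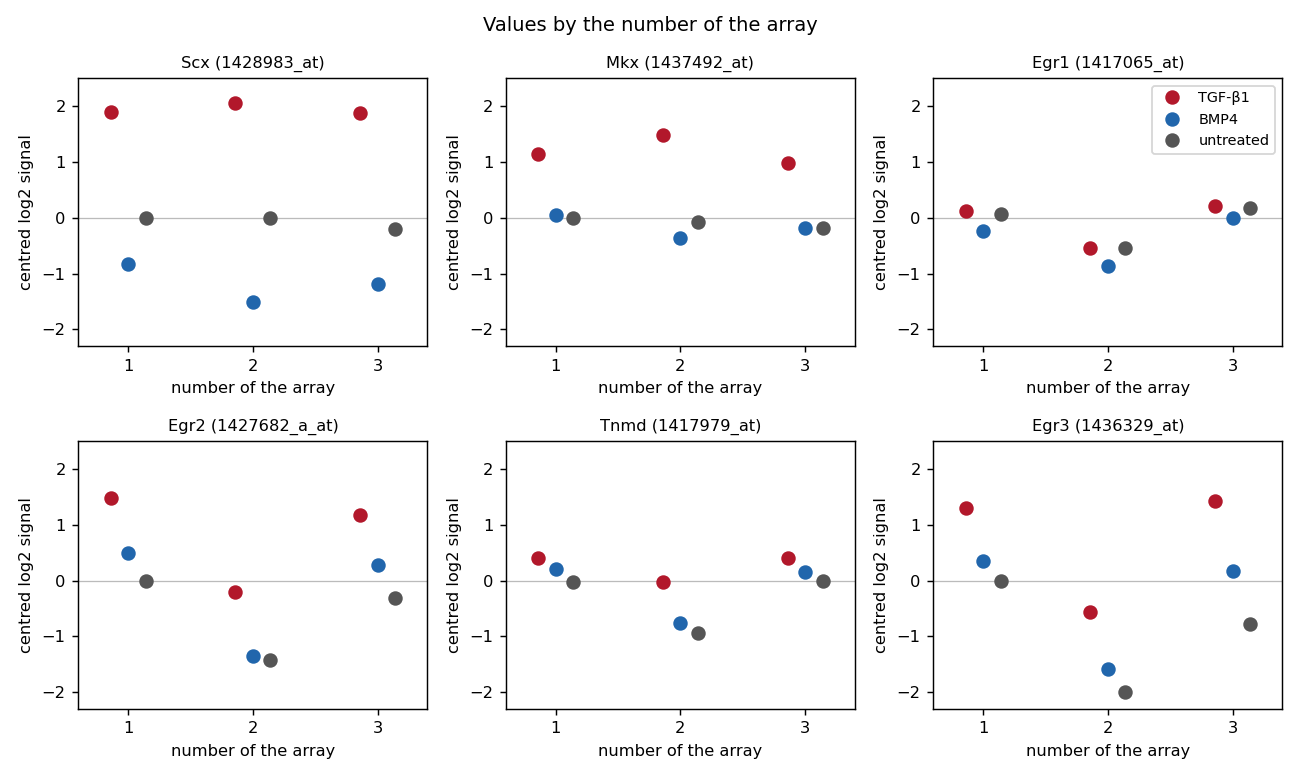
Centred log2 signal (vertical axes) of Scx, Mkx, Egr1, Egr2, Tnmd and Egr3 against the number of the array (horizontal axes), with TGF-β1, BMP4 and untreated cultures drawn side by side at each number. Egr2, Tnmd, Egr1 and Egr3 step down at number 2 in all 3 conditions, and Scx and Mkx do not.

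The genes with the most similar pattern over the 9 arrays are named as a description. Among 6745 other genes that varied over the arrays, the patterns most like Scx 1428983_at were those of Inka1 (Pearson's r = 0.994), Lrig3 (r = 0.993) and Nptx1 (r = 0.990). Those most like Mkx were Irx2 (r = 0.991), Kank4 (r = 0.991) and Fmod (r = 0.983), the last a small proteoglycan that binds collagen fibrils in tendon. Egr1 was closest to Cxcl14 (r = 0.971), Stmn4 (r = 0.970) and Bcar3 (r = 0.963), and Egr2 to Pawr (r = 0.991), its relative Egr3 (r = 0.988) and Sel1l3 (r = 0.978). Tnmd was closest to Tagln (r = 0.991), a smooth muscle actin-binding protein, Fhl2 (r = 0.980) and Igfbp7 (r = 0.979). Between the genes themselves, Scx and Mkx correlated with r = 0.942 and Tnmd and Egr2 with r = 0.951, whereas Egr1 and Mkx gave r = 0.164. These correlations describe 9 arrays that share 3 treatments and 3 numbers.

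The values of Fmod and Lrig3 are given as examples. Fmod read 2.08, 2.60 and 1.79 in TGF-β1 cultures, 0.00, -0.32 and 0.02 in BMP4 cultures, and -0.14, -0.38 and -0.60 in untreated cultures, so that array 2 was the highest of the TGF-β1 arrays as in Mkx. Lrig3, a membrane protein of the leucine-rich repeat family, rose by 0.81 ± 0.07 with TGF-β1 (adjusted p 0.00024) and fell by 0.51 ± 0.07 with BMP4 (adjusted p 0.0019), the same directions as Scx.

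Relatives and partners of the 5 genes were measured beside them. Irx2 and Irx1, homeodomain factors of the Iroquois family to which Mkx is related, rose with TGF-β1 by 0.91 ± 0.10 (1.87-fold, adjusted p 0.00097) and 0.48 ± 0.10 (adjusted p 0.027). Tcf15 (paraxis), the bHLH factor closest to Scx, rose by 0.97 ± 0.16 (1.95-fold, adjusted p 0.011), reading 0.75, 0.81 and 0.87 in TGF-β1 cultures against 0.00, -0.56 and 0.09 in untreated cultures. In all, 3 of 16 homologues and bHLH partners were higher and 0 were lower, where 2.54% of all genes were higher and 4.21% lower. Their median was -0.13, beside 0.0096 over all genes. The block changed this to 3 higher and 2 lower (5.07% and 8.29% of all genes with the block).

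With BMP4, 3 of these 16 genes rose and 4 fell, where 3.45% of all genes were higher and 4.51% lower. The rises were in Id4 (1.27 ± 0.20), Id2 (1.01 ± 0.17) and Id1 (0.66 ± 0.14), inhibitors that take E proteins away from bHLH factors such as Scx. The falls were in Twist1 (-0.79 ± 0.09), Irx3 (-0.90 ± 0.15), Tcf4 (-0.54 ± 0.11), an E protein that pairs with bHLH factors, and Twist2 (-0.62 ± 0.16). The median over the 16 was -0.15. None of these 7 genes was called with TGF-β1 when the numbers were ignored, and Id4 was called lower with the block (-0.66, adjusted p 0.023). Between the treatments, 6 of the 16 were higher with TGF-β1 than with BMP4, Tcf15 and Irx2 among them, and 4 were lower, namely Id1 to Id4 (4.73% and 5.38% of all genes).

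Cnmd (chondromodulin), the cartilage homologue of Tnmd, ran against it. It read -1.51, 0.68 and -1.44 in TGF-β1 cultures, 0.15, 1.88 and 0.00 in BMP4 cultures, and -0.25, 1.70 and -0.27 in untreated cultures. Array 2 was the highest of every condition, by 1.97 ± 0.08 (adjusted p 1.3e-06), where Tnmd was lowest. With TGF-β1 the difference from untreated cultures was -1.14 ± 0.73 (adjusted p 0.44), and passed the test with the block (adjusted p 0.0003). BMP4 minus untreated was 0.29 ± 0.73 (adjusted p 0.91).

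Egr3 repeated the pattern of Egr2. It read 1.31, -0.57 and 1.42 in TGF-β1 cultures, 0.36, -1.59 and 0.16 in BMP4 cultures, and 0.00, -1.999 and -0.77 in untreated cultures. With TGF-β1 the difference was 1.64 ± 0.68 (adjusted p 0.23, and 0.00059 with the block), and the arrays numbered 2 were lower by -1.80 ± 0.15 (adjusted p 0.0002). Egr4 differed by 0.18 ± 0.09 with TGF-β1 (adjusted p 0.32), and the Egr co-repressors Nab1 and Nab2 by 0.31 ± 0.19 (adjusted p 0.43) and 0.15 ± 0.21 (adjusted p 0.76). Of the 20 genes of this group 1 was higher with TGF-β1 and 0 lower, the survival factor Ier3 (1.62 ± 0.36, adjusted p 0.036). Of all genes 2.54% were higher and 4.21% lower. With the block 6 of the 20 were higher and 1 lower, against 5.07% and 8.29% of all genes. The median of the group was 0.30 in this comparison.

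In BMP4 minus untreated 2 of the 20 rose and 0 fell, the growth regulator Myc (1.00 ± 0.09, adjusted p 0.0003) and the MAP kinase phosphatase Dusp1 (0.76 ± 0.19, adjusted p 0.043), with a median of 0.11. Of all genes 3.45% were higher and 4.51% lower there. TGF-β1 minus BMP4 was higher for the antiproliferative gene Btg2 (0.95 ± 0.15, adjusted p 0.0041) and the matricellular gene Ccn2 (1.04 ± 0.19, adjusted p 0.008) and lower for Myc and Dusp1. With the block 8 of the 20 were higher and 2 lower, where 7.46% of all genes were higher and 9.30% lower with the block. Srf, the factor that binds the CArG box, differed by 0.37 ± 0.19 with TGF-β1 (adjusted p 0.33), and passed the test with the block (adjusted p 0.03).

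Matrix genes of tendon and ligament, among them reported targets of Scx, Mkx and the Egr factors, rose more often than they fell with TGF-β1. Of 30 measured, 7 were higher and 2 were lower (median 0.24), where 2.54% of all genes were higher and 4.21% lower. The rises with the smallest adjusted p were in Thbs4 (1.38 ± 0.07, 2.60-fold), a matricellular protein of tendon, Fmod (2.53 ± 0.20, 5.77-fold), Cilp (1.70 ± 0.17, 3.25-fold), Bgn (0.55 ± 0.07) and Fn1 (1.12 ± 0.16), and the falls were in Col6a2 (-0.46 ± 0.08) and Col6a1 (-0.34 ± 0.07). The collagen I genes, the bulk of tendon matrix, were not called: Col1a1 differed by 0.15 ± 0.08 (adjusted p 0.35) and Col1a2 by 0.10 ± 0.12 (adjusted p 0.72). With the block 13 were higher and 2 lower, against 5.07% and 8.29% of all genes.

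With BMP4 the same 30 genes had 1 rise and 9 falls (median -0.25), where 3.45% of all genes were higher and 4.51% lower. The rise was in Thbs4 (1.18 ± 0.07), and the falls included Thbs2 (-1.61 ± 0.14), Chodl (-1.98 ± 0.18), Col6a3 (-1.60 ± 0.17), Col1a2 (-0.76 ± 0.12) and Col5a2 (-0.54 ± 0.09). Without the 3 arrays numbered 2 the count was 1 rise and 4 falls. Against BMP4, TGF-β1 cultures were higher in 15 and lower in 0 of the 30 (median 0.49), led by Thbs2 (2.05 ± 0.14), Cilp (2.13 ± 0.17), Fmod (2.26 ± 0.20), Col6a3 (1.66 ± 0.17) and Col5a1 (0.74 ± 0.08). Of all genes 4.73% were higher and 5.38% lower in that comparison. Scx 1428983_at had the same direction in each comparison as the majority of the matrix genes called. The other Scx probe set was not called with BMP4 (-0.14, adjusted p 0.74), and an effect of Scx on these genes was not tested.

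**Figure D4:**
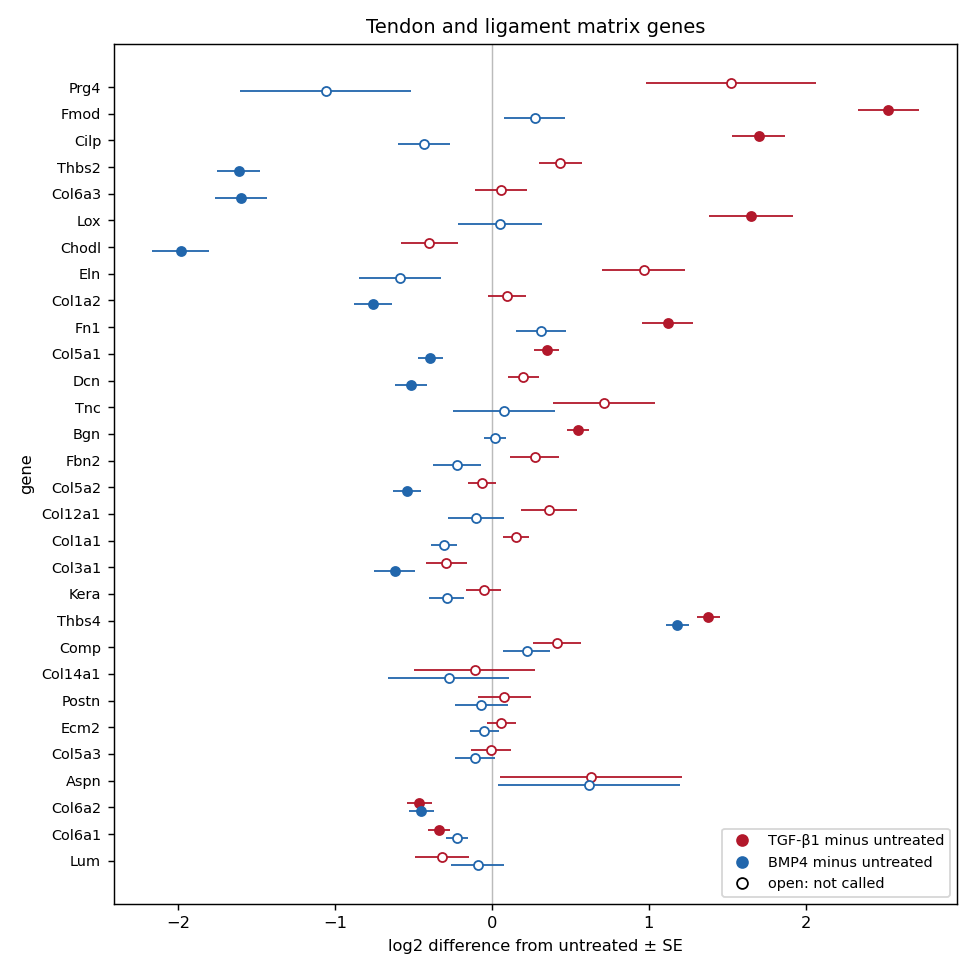
Log2 difference from untreated cultures ± SE (horizontal axis) for 30 matrix genes of tendon and ligament (vertical axis), with TGF-β1 in red, BMP4 in blue and open circles for genes not called. Genes run from the highest to the lowest difference between TGF-β1 and BMP4, and Thbs4 rises with both factors.

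Among other regulators studied in tendon, 16 were measured. With TGF-β1 1 was higher and 0 lower (median 0.01, with an unadjusted p under 0.05 for 5), against 2.54% and 4.21% of all genes. The rise was in the transcriptional cofactor Eya2 (0.37 ± 0.09, adjusted p 0.045). With BMP4 5 were higher and 4 lower (median -0.08, with an unadjusted p under 0.05 for 11), against 3.45% and 4.51% of all genes. The rises were in Sox9, the master factor of cartilage (1.75 ± 0.23, adjusted p 0.0021), the Krüppel-like factors Klf2 (1.19 ± 0.15) and Klf4 (1.14 ± 0.16), and the hedgehog targets Ptch1 (1.11 ± 0.18) and Gli1 (0.97 ± 0.17). The falls were in Gdf5 (-1.28 ± 0.18), a ligand of joints and tendon, Epha4 (-0.95 ± 0.15), Eya1 (-0.79 ± 0.16) and Nfatc4 (-0.41 ± 0.10). Between the treatments 5 were higher and 5 lower with TGF-β1, against 4.73% and 5.38% of all genes. Sox9 differed by 0.02 ± 0.23 with TGF-β1 (adjusted p 0.97), and Scx 1428983_at and Sox9 were called in opposite directions with BMP4, a call that the other Scx probe set did not share (-0.14, adjusted p 0.74).

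Genes of FGF signalling, which acts upstream of Scx in the embryo, were measured as a list. With TGF-β1 10 of the 14 were not called, among them the ligands Fgf4 (-0.07, adjusted p 0.79) and Fgf6 (-0.29, adjusted p 0.17). Whether any of these genes acted on Scx here was not tested. Of 14 genes of FGF signalling, 3 were higher and 1 lower with TGF-β1: Fgf18 (2.14 ± 0.16, 4.41-fold), the receptor Fgfr1 (0.64 ± 0.10) and the myotomal ligand Fgf8 (0.48 ± 0.10) rose, and Fgfr2 fell (-0.95 ± 0.11). With the block 4 were higher and 2 lower, Dusp6 (0.81, adjusted p 0.014) and Fgfr3 (-0.95, adjusted p 0.032) being added. With BMP4 2 were higher, Fgfr3 (2.33 ± 0.24), a receptor of chondrocytes, and Fgfr2 (1.03 ± 0.11), and 3 were lower, Fgf18 (-2.70 ± 0.16, 6.52-fold), Fgf9 (-0.49 ± 0.10) and Fgfr1 (-0.42 ± 0.10). Between the treatments 3 were higher and 2 lower with TGF-β1, or higher in 7 and lower in 2 with the block. The medians of the 3 comparisons, in this order, were 0.06, -0.11 and 0.34. Of all genes 2.54% were higher and 4.21% lower with TGF-β1 (5.07% and 8.29% with the block). With BMP4 these shares were 3.45% and 4.51%. Between the treatments they were 4.73% and 5.38%, or 7.46% and 9.30% with the block.

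Of 15 ligands, receptors and Smads of the TGF-β pathway, 7 were higher and 3 lower with TGF-β1 (median 0.24). The feedback inhibitors Pmepa1 (1.99 ± 0.14, 3.97-fold) and Skil (0.71 ± 0.11) and the ligand Tgfb3 (0.73 ± 0.09) rose, and the co-receptor Tgfbr3 (-2.18 ± 0.16, 4.53-fold), the ligand Tgfb2 (-0.98 ± 0.16) and Smad3 (-0.61 ± 0.11) fell. With BMP4 3 were higher and 5 lower (median 0.08). The inhibitory Smads Smad6 (1.79 ± 0.13) and Smad7 (1.12 ± 0.10) rose, and Tgfbr3 (-2.14 ± 0.16), Smad3 (-1.18 ± 0.11), Tgfb3 (-0.77 ± 0.09) and the receptor Tgfbr2 (-1.35 ± 0.16) fell. Between the treatments 5 were higher and 3 lower with TGF-β1 (median 0.18). Of all genes 2.54% were higher and 4.21% lower with TGF-β1, 3.45% and 4.51% with BMP4, and 4.73% and 5.38% between the treatments.

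Markers of the starting tissue and of other cell types moved as follows. Of 9 sclerotome markers 0 were called with TGF-β1 (3 had an unadjusted p under 0.05 in limma, and 1 was lower with the block), and 5 were lower with BMP4: Meox1 (-1.61 ± 0.13), Uncx (-1.38 ± 0.14), Tbx18 (-0.83 ± 0.09), Pax1 (-1.17 ± 0.25) and Meox2 (-0.56 ± 0.14). Their mean centred value ran from -0.01 to 0.17 over TGF-β1 arrays, from -0.48 to -0.44 over BMP4 arrays and from 0.01 to 0.49 over untreated arrays, and the part of this fall in the fall of Scx with BMP4 was not tested. TGF-β1 minus BMP4 was higher in 3 and lower in 1, or higher in 6 and lower in 1 with the block. Of all genes 2.54% were higher and 4.21% lower with TGF-β1 (5.07% and 8.29% with the block). With BMP4 these shares were 3.45% and 4.51%. In TGF-β1 minus BMP4 they were 4.73% and 5.38%, or 7.46% and 9.30% with the block.

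Of 13 skeletal muscle markers, 0 were higher and 1 was lower with TGF-β1, or 6 were lower with the block (median -0.30). Of all genes 4.21% were lower, or 8.29% with the block. The shares of all genes given with the sclerotome markers stand beside the other counts of this paragraph as well. Their mean ran from -0.15 to -0.11 over TGF-β1 arrays and from 0.04 to 0.26 over untreated arrays. With BMP4 1 was higher, Myf5 (0.83 ± 0.11), and 1 lower, Mymk (-0.45 ± 0.09), and in TGF-β1 minus BMP4 1 was lower, or 1 higher and 2 lower with the block. Of the Schwann, neural crest and neuronal markers 1 was higher with BMP4, Fabp7 (1.17 ± 0.11). In TGF-β1 minus BMP4 3 of these markers were lower, or 5 with the block. Of 11 endothelial and blood markers 1 was lower with TGF-β1, Cd68 (-0.46 ± 0.09), and 0 were called with BMP4 (2 had an unadjusted p under 0.05 in limma). In TGF-β1 minus BMP4 Cd68 was the 1 gene called. Of 6 notochord and epithelium markers 0 were called with TGF-β1 (1 had an unadjusted p under 0.05), Krt18 was the 1 gene lower with BMP4 (-1.29 ± 0.15) and the 1 gene higher in TGF-β1 minus BMP4, or 2 genes with the block.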

How the data were processed

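The deposited table holds log2 signals that the authors obtained by RMA, per the submitters' processing notes, from 9 arrays of amplified RNA. A version of RMA and a genome build are not given in the sources used here. In all 45101 probe sets the median over the arrays was 0 (tolerance 1e-06), so each had been centred, and signal over background could not be judged. Values ran from -3.83 to 4.01, and no filter on low signal was set. The 64 control probe sets were left out, and no array was. No 2 arrays were identical (0 pairs). Symbols came from the platform table: 34945 probe sets had 1 symbol, 932 several and 9160 none, with 34741 matched to RefSeq by Entrez identifier and 0 symbols changed.

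The test was limma's moderated test (limma 3.58.1, R 4.3.3) on the means of the 3 groups over all 9 arrays (6 residual degrees of freedom, prior 4.01), two-sided, adjusted by the Benjamini-Hochberg method over 45037 probe sets, and the scripts were tested on simulated data. Python 3.11.15 drew the figures. The number of arrays, 3 a group, limits the precision. The replicates are separate set-ups of the experiment, so p-values measure the spread between these.

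Arrays of the same number deviated together from their group means in TGF-β1 and untreated cultures (r = 0.137, 0.494 and 0.277 for numbers 1 to 3) and in TGF-β1 and BMP4 cultures (r = 0.290, 0.497 and 0.377), and these were treated as paired by number. In BMP4 and untreated cultures r was -0.0485, 0.502 and 0.239, with no likeness at number 1, and that comparison was not treated as paired. If the numbers mark the separate set-ups, these cultures are paired as well, which the correlations cannot decide. Arrays of unlike numbers gave r from -0.488 to 0.363. Untreated array 1 was more like the arrays numbered 3 (r = 0.202 with TGF-β1, 0.363 with BMP4) than those numbered 1. The values therefore do not pair untreated array 1 by its number. The pairing rests on the values of the other arrays and on the separate set-ups that the study describes.

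The 5 genes and the 11 gene lists were chosen with earlier results of these data known. Each list gene was represented by its probe set with the largest variance, 12 listed genes had no match, and up to 5 called genes a direction were named by adjusted p, with relatives and partners of the 5 genes. Likeness was taken over genes whose SD over the arrays was at least 0.2. Alternatives were the replicate block, only the groups compared, each array left out, the arrays numbered 2 left out, median centring, quantile normalization, the more variable probe sets only, robust moderation, the mean of a gene's probe sets and the methods' unequal-variance test.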

Additional observations from a re-analysis of the deposited data

How the results depend on the processing

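Of 399 recomputed differences of the 7 probe sets, 363 kept their direction and their side of the threshold, 180 of 189 among those that left out 1 array. Median centring, quantile normalization, the more variable probe sets only, robust moderation and the fit to only the groups compared changed no call or direction of a member. Called probe sets in TGF-β1 minus untreated numbered 1993, with 4029 under the replicate block, 1172 in the fit to only the 2 groups, 888 without the arrays numbered 2, and 867 to 2053 with 1 array left out. The lowest counts came without TGF-β1 array 1 (903), 2 (1194) or 3 (867) and without untreated array 1 (982) or 2 (1061). BMP4 minus untreated had 2449, with 4069 (block), 1617 (2 groups), 1200 (without arrays numbered 2) and 1431 to 2262 (1 array left out, lowest without BMP4 array 2, and 1511 without BMP4 array 1). TGF-β1 minus BMP4 had 3110, with 5252 (block), 5741 (block in the 2 groups), 1819 (without arrays numbered 2) and 1877 to 3330 (1 array left out; 1877, 1932 and 1927 without BMP4 array 1, BMP4 array 2 and TGF-β1 array 3). The methods' unequal-variance test called 0, 0 and 11 probe sets in these comparisons after Benjamini-Hochberg, and 253, 433 and 543 at an unadjusted p under 0.05 with a 2-fold difference.

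After Benjamini-Hochberg that test called no member: TGF-β1 minus untreated had an adjusted p of 0.094 for Scx 1428983_at (2.01), 0.36 for 1456291_x_at (0.88) and 0.31 for Mkx (1.29), BMP4 minus untreated 0.40 for Scx (-1.11), and TGF-β1 minus BMP4 0.18, 0.24 and 0.18 for these 3 (3.12, 1.02 and 1.37). It estimates each spread from 2 groups alone. At an unadjusted p under 0.05 with a 2-fold difference, it kept 1428983_at and Mkx and missed 1456291_x_at (0.88), which is under 2-fold. Probe set 1456291_x_at also missed the threshold without the arrays numbered 2 (0.73, adjusted p 0.098), with 0.78 to 1.04 over single arrays left out.

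With the replicate block, TGF-β1 minus untreated passed for Egr2 (1.39 and 1.29) and Tnmd (0.58), TGF-β1 minus BMP4 for Egr2 (1.00 and 0.99) and Egr1 (0.29), and the block in only the 2 groups, an alternative chosen after seeing the data, gave the same calls (adjusted p 0.0022, 0.0031 and 0.045 for Egr2 and Tnmd over untreated, 0.045 for Egr1). Without arrays numbered 2, Egr2 passed at 1.48 and 1.40 over untreated and 0.94 and 0.99 over BMP4. BMP4 minus untreated, which was not treated as paired, passed for Egr2 1427682_a_at alone (0.38, adjusted p 0.049999), and the block changed no other call of a member. Differences that were not called changed sign with 1 array left out: Egr1 in TGF-β1 minus untreated (-0.19 to 0.26), and in BMP4 minus untreated Egr2 (-0.039 to 0.96 and -0.11 to 0.81), Tnmd (-0.12 to 0.50) and Mkx (-0.19 to 0.019, and 0.021 without arrays numbered 2). The cause was not tested. Of 99 list counts recomputed, 70 stayed within 1.5 times.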
